A study of Homo sapiens with 2 samples.

Results

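The tetraspanin genes CD81, CD9, CD63, CD82, CD151, TSPAN1, TSPAN4, TSPAN13 and TSPAN31 were examined, 9 among the 19826 genes of a single-cell count table from breast cancer mammospheres. The genes were chosen by name as members of 1 family, after an earlier look at the same counts had placed CD81 among the genes with the highest ratio between the libraries. All 9 were in the table. Their ratios between the doses are therefore descriptions, and none is tested. The cells were MDA-MB-231, an established line from a triple-negative breast cancer. The 0 mM library, labelled Wildtype, came from cells kept flat for 30 days in high-glucose medium without metformin. The 2 mM library, labelled Metformin, came from cells kept likewise with 2 mM of this biguanide. Both were then grown for 10 days as mammospheres, spheres that float over low-attachment plastic, and taken apart with trypsin and EDTA. There was 1 library per dose, so a difference between doses cannot be told apart from a difference between cultures or library preparations.

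Tetraspanins are small proteins that cross the membrane 4 times, with a short and a long loop outside the cell. They bind integrins, immunoglobulin-domain proteins, proteases and each other, and gather these partners into patches of the plasma membrane. Several of them, above all CD9, CD63 and CD81, are also abundant on extracellular vesicles and serve as vesicle markers. In breast cancer cells the family has been linked to adhesion, migration and the trafficking of integrins.

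The libraries held 1000 cells with 4403045 unique molecular identifiers (UMIs, which count captured transcripts) at 0 mM and 991 cells with 3264343 UMIs at 2 mM. No barcode sequence was shared between them. Merging barcodes 1 base apart within a library left 931 cells at 0 mM and 883 at 2 mM. Whether such barcodes were parts of 1 cell was not tested. Levels are UMIs summed over the cells of a library and scaled to a common library total (CPM); they are not scaled by gene length and are not compared between genes. A sum of 3 UMIs corresponds to 0.681 CPM at 0 mM and 0.919 CPM at 2 mM. Of the genes that mark this line, vimentin (VIM) had 3271 and 1596 CPM, a ratio of 0.488 (0.473 to 0.504), and CD44 had 372 and 262 CPM. The epithelial gene EPCAM had 28.6 and 42.6 CPM, so these markers themselves differed between the libraries; their part in the results was not tested. The oestrogen and progesterone receptor genes ESR1 and PGR had at most 2 UMIs in either library. The receptor gene ERBB2 of the same list was detected, with 89 and 55 UMIs, or 20.2 and 16.8 CPM. Of 10 leukocyte markers, 4 were rows of the table, with 27 and 56 UMIs in all, mostly CD14; the defining marker PTPRC had 0 and 1 UMIs. In CPM the leukocyte markers summed to 6.13 and 17.2, and their part in the results was not tested. The 6 fibroblast markers summed to 17 and 22 UMIs and the only endothelial marker in the table, KDR, had 4 and 12.

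CD81 was higher in the 2 mM library, while CD9, CD82, CD151 and TSPAN4 were somewhat lower and CD63 was nearly level. A gene was compared between the doses when its level reached 50 CPM in one of the libraries and its UMIs in both came to 50 or more, which 6 of the 9 did. At a ratio of at least 1.5, 1 of the 6 was higher at 2 mM (CD81), beside 5.04% of the 4105 genes compared, and 0 were lower, beside 3.31%. CD81 passed the minimum only through its level at 2 mM, so its place among the 6 already required a difference. With 50 CPM required in both libraries CD81 dropped out, and 0 of 5 members were at least 1.5-fold higher, beside 2.54% of 3502 genes. The other 5 had ratios below 1, as did 47.4% of all genes compared. The median log2 ratio of the 6 was -0.26, against 0.02 over all genes compared. Since CD81 helped to choose the family and the list is short, these counts are a description.

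**Figure D1:**
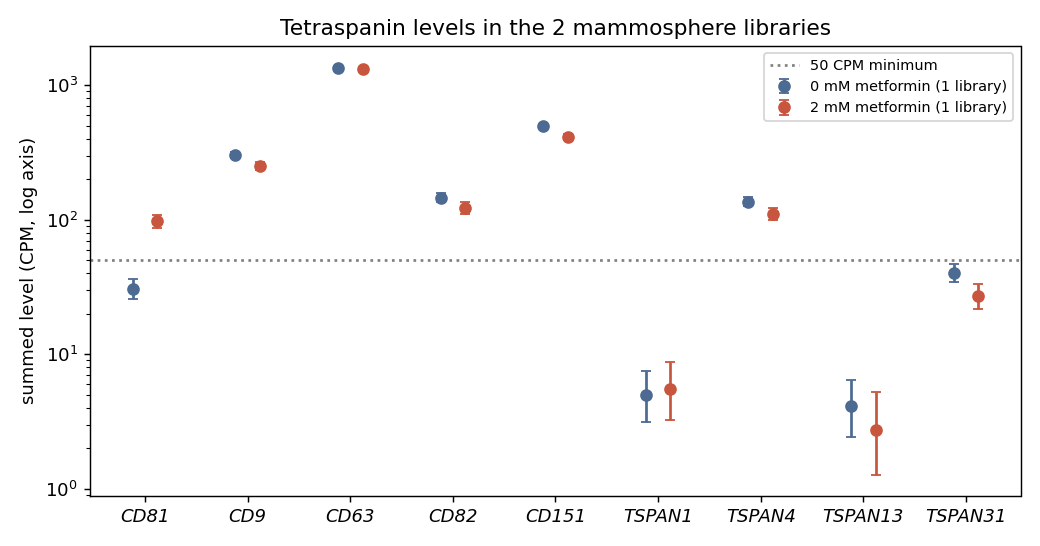
Summed level of each tetraspanin gene (CPM, log axis) in the 0 mM and the 2 mM library, 1 library each. Bars are exact Poisson 95% intervals, which cover counting error only; CD81 stands at 30.7 and 97.7 CPM, and TSPAN1, TSPAN13 and TSPAN31 lie below the dotted minimum of 50 CPM in both.

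CD81 is a widely expressed tetraspanin, known as a binder of immunoglobulin-domain proteins and as an entry receptor of hepatitis C virus. It had 135 UMIs at 0 mM and 319 at 2 mM. This gave levels of 30.7 CPM (95% interval 25.7 to 36.3) and 97.7 CPM (87.3 to 109). The ratio of the 2 mM over the 0 mM library was 3.19 (2.60 to 3.93), higher than that of 99.7% of the genes compared. The interval lay above 1, as for 27.1% of all genes compared. The rank is a description only. An earlier look at the same counts had placed CD81 among the highest ratios, and its 0 mM level lay below the minimum of 50 CPM. All intervals treat each UMI as a separate draw and are too narrow for differences between cells or cultures.

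The tetraspanins CD9 and CD151 are known for their ties to integrins: CD151 binds laminin-binding integrins directly, and CD9 restrains or supports motility according to its partners. CD9 had 1337 and 823 UMIs, or 304 CPM at 0 mM and 252 CPM at 2 mM. Its ratio was 0.830 (0.760 to 0.906). CD151 had 2183 and 1343 UMIs, or 496 and 411 CPM, with the same ratio of 0.830 (0.775 to 0.889). CD82, known as a suppressor of metastasis, had 640 and 398 UMIs. Its levels were 145 and 122 CPM and its ratio 0.839 (0.738 to 0.952). TSPAN4, known from the migrasomes that moving cells leave behind, had 601 and 362 UMIs. Its levels were 136 and 111 CPM and its ratio 0.812 (0.711 to 0.927). In these 4 genes the 2 mM level was lower by less than 1.5-fold, and the counting interval of the ratio lay below 1. An interval below 1, whatever the size of the difference, was found for 4 of the 6 tetraspanins compared and for 23.4% of all genes compared.

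CD63, the tetraspanin of late endosomes, lysosomes and secreted vesicles, had 5925 UMIs at 0 mM and 4344 at 2 mM. Its levels of 1346 CPM (1312 to 1380) and 1331 CPM (1291 to 1371) overlapped within counting error. The ratio was 0.989 (0.951 to 1.03), so a difference of 1.5-fold lay outside its counting interval. The sign of this small log2 ratio depended on the weighting: it was -0.02 over summed counts and 0.01 when cells were weighted equally.

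TSPAN31, TSPAN1 and TSPAN13 did not reach the minimum. TSPAN31, a gene first found amplified in sarcomas, had 177 and 88 UMIs, or 40.2 and 27.0 CPM, with a ratio of 0.671 (0.513 to 0.871). Its gene model overlaps that of the cyclin-dependent kinase gene CDK4 on the opposite strand, per GENCODE release 29. Whether counting used strand is not given in the sources used here, so reads of these genes cannot be assigned with certainty; CDK4 itself had 166 and 160 CPM, a ratio of 0.966 (0.862 to 1.08). TSPAN1, an epithelial tetraspanin, had 22 UMIs at 0 mM and 18 at 2 mM. TSPAN13 had 18 and 9. Their ratios of 1.10 (0.558 to 2.16) and 0.674 (0.267 to 1.58) could not be told from 1 at this depth. CD151 also overlaps a neighbour on the opposite strand, the RNA polymerase subunit gene POLR2L, which had a ratio of 0.987 (0.934 to 1.04). Opposite-strand gene models also overlap CD81 (CD81-AS1), CD9, CD63, CD82, TSPAN1 and TSPAN4. None of these models is a row of the table, and reads in these overlaps cannot be assigned with certainty either.

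A CD81 UMI was seen in a larger share of cells at 2 mM than at 0 mM. To set cells of unlike depth side by side, cells were cut down by a random draw to 1000 UMIs, which left 944 cells at 0 mM and 800 at 2 mM and left out 56 and 191 shallower ones. At that depth 31 cells at 0 mM, 3.28% (2.24% to 4.63%), and 74 cells at 2 mM, 9.25% (7.33% to 11.5%), had a CD81 UMI. No thinned cell had more than 2 CD81 UMIs at 0 mM or 3 at 2 mM, and a cell with the transcript carried 1.03 and 1.12 UMIs on average. Counts this low per cell follow largely from the thinning. They cannot tell a level spread over many cells from one held by a part of them. Before thinning, 11.6% of cells at 0 mM and 23.7% at 2 mM had a CD81 UMI, at a median depth of 3386 and 2509 UMIs per cell. So a CD81 UMI was detected in more cells in the library with fewer UMIs per cell. The libraries hold 1 cell line, so no cell type that lacks these genes gave a background share, and the part of free RNA was not tested.

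The shares of cells with the other tetraspanins differed by less than their joined counting intervals. CD63 was seen in 72.0% (69.1% to 74.9%) of thinned cells at 0 mM and 70.3% (66.9% to 73.4%) at 2 mM. For CD151 the shares were 39.8% (36.7% to 43.0%) and 33.8% (30.5% to 37.1%), a difference of -6.08 points (-12.6 to 0.45). CD9 was seen in 25.3% and 23.0% of cells, a difference of -2.32 points (-8.09 to 3.50). CD82 was seen in 13.9% and 9.63% of cells, a difference of -4.25 points (-8.58 to 0.15), and TSPAN4 in 12.9% and 10.3%, a difference of -2.67 points (-7.00 to 1.71). Before thinning, the shares were 91.0% and 86.7% for CD63, 73.6% and 59.5% for CD151 and 58.9% and 43.3% for CD9. For CD82 they were 35.8% and 27.0%, and for TSPAN4 38.5% and 25.6%. TSPAN31 was seen in 3.28% and 2.25% of thinned cells (14.7% and 7.47% before thinning). TSPAN1 and TSPAN13 were each seen in at most 6 thinned cells of a library.

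**Figure D2:**
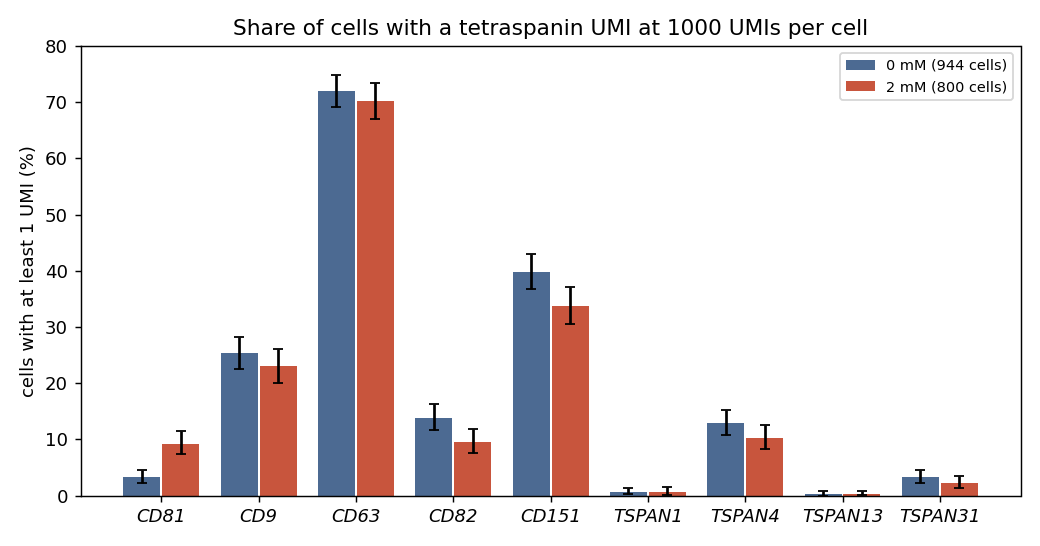
Share of cells with at least 1 UMI of each tetraspanin gene after every cell was thinned to 1000 UMIs, in 944 cells at 0 mM and 800 cells at 2 mM. Bars show percent of cells from 0 and error bars exact binomial 95% intervals. The intervals of the libraries are apart for CD81 only, and an overlap does not show that the shares were alike.

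Most cells carried at least 1 of the 9 transcripts even at this shallow depth. No member was seen in 8.90% of the thinned cells at 0 mM and 11.3% at 2 mM. On average 1.71 and 1.59 of the 9 genes were seen per cell, and 20.3% and 16.3% of cells showed 3 or more. Over the 36 pairs of members and both libraries, Pearson correlations of log counts lay between -0.06 and 0.07. Most members were seen in few cells at this depth and the cells share a library, so values this close to 0 are no finding and do not show that the genes vary independently. Among 3502 genes with at least 50 CPM in both libraries, those most like CD9 across cells were IGFBP6 (r = 0.15 at 0 mM and 0.15 at 2 mM), HLA-C (0.10 and 0.10) and SUN1 (0.09 and 0.13). Among those most like CD63 were CST3 (0.11 and 0.15) and HLA-B (0.10 and 0.16), and those most like CD151 were TPI1 (0.11 and 0.11), AP3B1 (0.09 and 0.10) and TUBB (0.09 and 0.08). These too are weak correlations over 944 and 800 cells. The other 6 genes were seen in too few cells for such a search.

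CD81 was higher at 2 mM in every range of cell depth and in cells with many or few cycle or interferon transcripts. In cells of 1000 to under 2000 UMIs its levels at 0 and 2 mM were 29.7 and 92.5 CPM, in cells of 2000 to under 4000 UMIs 31.4 and 114 CPM, and in cells of 4000 or more UMIs 30.7 and 93.9 CPM. The ratios were 3.12 (1.48 to 7.17), 3.62 (2.33 to 5.81) and 3.05 (2.37 to 3.94). These ranges are parts of the cells in which the ratio over all cells was seen, so they give no separate support. Over all 7 ranges of cells examined, the CD81 level lay between 29.7 and 32.1 CPM at 0 mM and between 78.0 and 122 CPM at 2 mM, where it was lowest in cells with 3 or more UMIs of a list of G2/M genes.

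Of the other tetraspanins, CD9 and CD151 had ratios below 1 in all 7 ranges. For CD9 these ran from 0.730 in cells of 2000 to under 4000 UMIs to 0.893 in cells with few interferon transcripts, and for CD151 from 0.697 in the same depth range to 0.885 in those with few interferon transcripts. CD82 ran from 0.636 to 0.923. TSPAN4 had a ratio of 0.613 (0.467 to 0.801) in cells of 2000 to under 4000 UMIs and 0.939 (0.795 to 1.11) in cells of 4000 or more; whether these differ was not tested. CD63 stayed between 0.955 and 1.05. TSPAN31 had 14 and 3 UMIs in the shallowest range, a ratio of 0.230 (0.0425 to 0.826), and 29 and 32 UMIs in the next, a ratio of 1.03 (0.603 to 1.76).

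**Figure D3:**
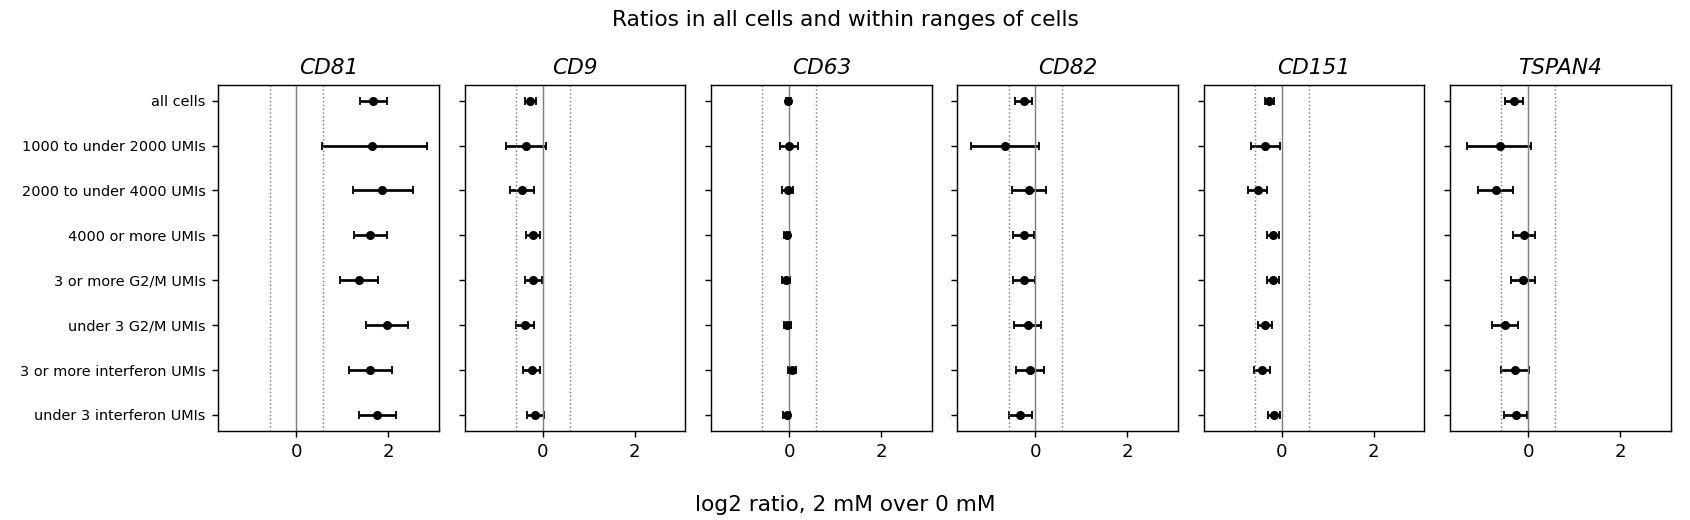
Log2 ratio of the 2 mM over the 0 mM library for the 6 tetraspanins compared, in all cells and in 7 ranges of cells set by total UMIs, G2/M UMIs or interferon UMIs. Bars are exact conditional 95% intervals for counting error and dotted lines mark 1.5-fold; the CD81 points lie above the upper line in all rows and CD63 near 0 in all.

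Within each library, several tetraspanins differed between cells with many and few cycle transcripts. Cells were divided at 3 UMIs of the G2/M list after thinning, which is a point in a range and not a border between cell types: 305 cells at 0 mM and 275 at 2 mM had 2 or 3 such UMIs. Cells at or above it made up 58.3% at 0 mM and 46.0% at 2 mM. CD63 was lower in these cells in both libraries, at 1253 against 1510 CPM at 0 mM and 1196 against 1470 CPM at 2 mM. The ratios were 0.830 (0.788 to 0.874) and 0.814 (0.766 to 0.866). CD9 was lower in them at 0 mM (284 against 340.1 CPM, ratio 0.835, 0.748 to 0.932), while at 2 mM the interval included 1 (ratio 0.947, 0.821 to 1.09). CD82 was higher in them, at 159 against 123 CPM at 0 mM and 134 against 109 CPM at 2 mM, and the counting intervals of both ratios lay above 1, the second only just (ratio 1.23 at 2 mM). CD81 differed little at 0 mM (30.5 against 31.2 CPM, ratio 0.976, 0.681 to 1.41) and was lower in these cells at 2 mM (78.0 against 122 CPM, ratio 0.640, 0.506 to 0.807). Whether these ratios differ between the libraries was not tested, and their intervals overlap. TSPAN31 had 18.7 against 38.2 CPM at 2 mM, a ratio of 0.490 (0.304 to 0.774), and 37.2 against 45.1 CPM at 0 mM. Of the 18 TSPAN13 UMIs at 0 mM, 17 were in these cells and 1 in the others, a ratio of 10.5 (1.65 to 440); at 2 mM the counts were 6 and 3. Median depth in cells above and below the division was 3693.5 and 3611.5 UMIs at 0 mM and 3491.5 and 2860 UMIs at 2 mM, and its part in these differences was not tested.

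CD9 was higher in cells with interferon-induced transcripts in both libraries. Cells with 3 or more UMIs of 25 interferon-induced genes made up 48.7% at 0 mM and 31.5% at 2 mM, and 157 and 151 cells had 2 or 3 such UMIs. CD9 had 387 CPM in these cells against 240 CPM in the others at 0 mM, and 328 against 214 CPM at 2 mM. The ratios were 1.62 (1.45 to 1.80) and 1.53 (1.33 to 1.76). CD63 was also higher in them, with ratios of 1.11 (1.05 to 1.16) and 1.21 (1.13 to 1.28). TSPAN1 had 14 UMIs in these cells of each library and 8 and 4 in the others. Its ratios were 2.19 (0.857 to 6.02) at 0 mM and 6.63 (2.08 to 27.7) at 2 mM. CD81 had 32.1 against 29.8 CPM at 0 mM and 97.4 against 100.4 CPM at 2 mM, with ratios of 1.08 (0.754 to 1.53) and 0.970 (0.759 to 1.23). CD82 and TSPAN4 had intervals that included 1 in both libraries, and CD151 had ratios of 1.06 (0.977 to 1.16) and 0.894 (0.793 to 1.01). Between the doses, the ratio of CD9 was 0.846 (0.743 to 0.961) in cells at or above the division and 0.893 (0.787 to 1.01) below it. The part of the unlike shares of such cells in the dose ratio over all cells was not tested. Median depth in cells at or above this division and below it was 3352 and 3824.5 UMIs at 0 mM. At 2 mM it was 3239.5 and 3019 UMIs, and the part of depth in these differences was not tested.

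**Figure D4:**
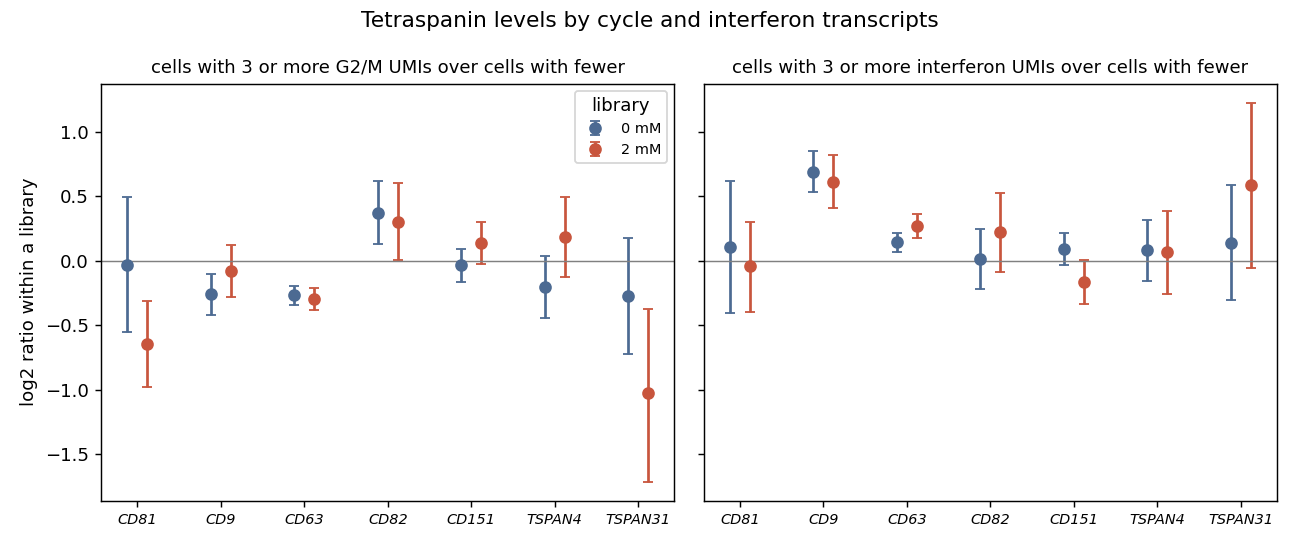
Log2 ratio, within each library, of tetraspanin levels in cells with 3 or more G2/M UMIs (left) or interferon UMIs (right) over cells with fewer, in the 0 mM and the 2 mM library. Bars are exact conditional 95% intervals for counting error; CD9 is above 0 on the right and CD63 below 0 on the left in both libraries.

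The other tetraspanins of the genome were mostly scarce. Of 24 further family genes listed, 14 were rows of the table and 2 reached the minimum. TSPAN3 had 859 and 718 UMIs, or 195 and 220.0 CPM, with a ratio of 1.13 (1.02 to 1.25). TSPAN5, of the group that escorts the protease ADAM10 to the cell surface, had 55.6 and 46.3 CPM, a ratio of 0.831 (0.674 to 1.02). TSPAN15, another ADAM10 escort, lay below the minimum at 46 and 72 UMIs, with a ratio of 2.11 (1.44 to 3.13); it is named because its value stood out. CD37, a tetraspanin of leukocytes, had 0 and 1 UMIs.

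Known partners of tetraspanins included genes higher and genes lower at 2 mM. Of 29 listed partners, 18 were compared: 5 were at least 1.5-fold higher and 0 lower, beside 5.04% and 3.31% of all genes compared, and 13 had ratios above 1, beside 52.6%. Their median log2 ratio was 0.19, against 0.02 over all genes compared. The highest were the class II antigen presentation gene HLA-DRA (578 and 1216 CPM, ratio 2.10, 2.00 to 2.21) and the integrin subunit genes ITGB5 (27.7 and 56.4 CPM, ratio 2.03, 1.61 to 2.58) and ITGAV (45.2 and 91.6 CPM, ratio 2.03, 1.69 to 2.44). The others past 1.5-fold, named after their values were seen, were ITGA6 (ratio 2.00), a subunit of the laminin-binding integrins that CD151 associates with, and the growth factor receptor gene EGFR (ratio 1.68). ITGB5, ITGAV and EGFR reached the minimum only through the 2 mM library, where they were higher. Among the 15 partners with at least 50 CPM in both libraries, a restriction added after seeing the data, 2 were at least 1.5-fold higher and 10 had ratios above 1, beside 2.54% and 51.5% of 3502 genes. With a minimum of 100 CPM in either library, 2 of 11 were at least 1.5-fold higher, beside 3.84% of 2135 genes, and 7 had ratios above 1. The lowest were the hyaluronan receptor gene CD44 at 0.703 (0.647 to 0.764), the adhesion gene ALCAM at 0.842 (0.753 to 0.941) and the collagen-binding integrin gene ITGA2 at 0.874 (0.799 to 0.956). ADAM10 and ADAM17, sheddases that tetraspanins regulate, lay at 1.13 (0.991 to 1.29) and 0.988 (0.832 to 1.17). With scaling by trimmed means (TMM), which put 140 of all genes at least 1.5-fold higher and 223 lower against 207 and 136 by CPM, 5 partners were higher and 1 lower.

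Over all cells, the compared genes of the machinery that sorts and releases vesicles lay within 1.5-fold. Of 19 listed, 14 were compared, 10 had ratios below 1, beside 47.4% of all genes compared, and the median log2 ratio was -0.19, against 0.02. The lowest were LAMP2 (0.790, 0.716 to 0.871), a lysosomal membrane protein, and TSG101 (0.809, 0.717 to 0.911) and PDCD6IP (0.814, 0.719 to 0.919), which act in budding into endosomes. The highest were VPS4B (1.39, 1.18 to 1.63), an ATPase that takes the budding machinery apart, ARRDC1 (1.29, 1.06 to 1.57) and CHMP4B (1.21, 1.08 to 1.35). In cells with few interferon transcripts 7 genes of 15 compared had ratios above 1 and 8 below. Of these 15, 2 were at least 1.5-fold higher, beside 6.97% of all genes compared in such cells. In cells with few G2/M transcripts 1 of 13 was, beside 7.20%.

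**Figure D5:**
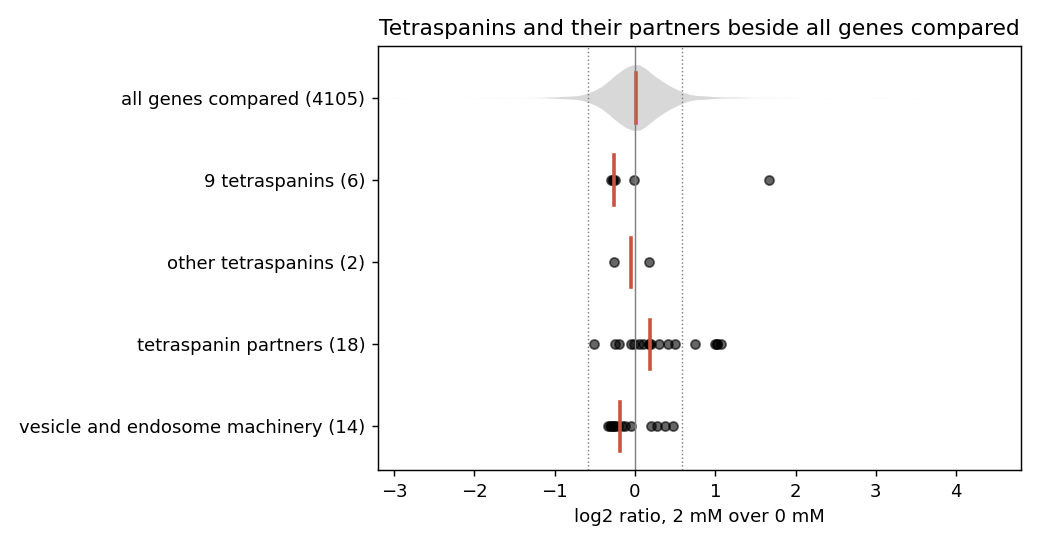
Log2 ratio of the 2 mM over the 0 mM library for each compared gene of 4 lists (points) beside the distribution over all 4105 genes compared (grey). Red lines are medians, at -0.26 for the 9 tetraspanins (6 compared), 0.19 for their partners and -0.19 for the vesicle and endosome genes; dotted lines mark 1.5-fold.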

How the data were processed

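A single table of whole UMI counts was deposited by the authors, with 19826 genes and 1000 barcodes per library. Per the submitters' processing notes, the tools were bcl2fastq and STAR 2.5.0a and the build was hg19; how barcodes were selected, UMIs collapsed and genes annotated is not given in the sources used here. Every column was mapped to a library by the start of its name. A barcode counted as a cell from 500 UMIs and 300 genes upward; no doublet caller was run. Counts were summed per library and scaled to CPM. Ratios carry exact conditional (Clopper-Pearson) 95% intervals, sums exact Poisson and shares exact binomial ones. The interval of a difference of shares joins the outer bounds and is wider than a 95% interval. All these intervals cover counting error only. No test was run, since each dose had 1 library. Thinning used 1 random draw per cell. Classes of cells were set by total UMIs, or by 3 UMIs of a list at 1000 UMIs per cell.

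The members and gene lists were chosen with earlier results of these data known. Named genes are the 9 members, other tetraspanins that passed the minimum, CD37, the 3 highest and 3 lowest of each partner and vesicle list, the 3 genes most correlated with each member seen in at least 20% of thinned cells of both libraries, and genes whose models overlap a member; others are named after their values were seen. A gene that this rule names is not reported here. GENCODE release 29 and RefSeq are of another build than hg19 and served only for neighbouring genes. Protein sequences were not used here. The computation was tested on simulated data. Alternatives changed the barcodes kept, the scaling (TMM in edgeR 4.0.16, size factors in DESeq2 1.42.0), the weighting of cells, the minimum and the fold. Software was Python 3.11.15, numpy 2.4.6 and scipy 1.17.1.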

Additional observations from a re-analysis of the deposited data

How the results depend on the processing

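CD81 was the only member at least 1.5-fold higher in the alternatives in which it was compared. With a minimum of 100 CPM in either library, or of 50 CPM in both, it was no longer compared and 0 members were higher. No alternative put a member at least 1.5-fold lower among those compared. The CD81 log2 ratio lay between 1.59 and 1.96. The median log2 ratio of the members compared was -0.26; it was -0.35 with TMM factors and -0.33 with DESeq2 size factors, which moved the median of all genes to -0.07 and -0.06. CD63 moved with these factors to -0.10 and -0.09, and its interval then left out 0. The log2 ratios of CD9 (-0.39 to -0.16), CD82 (-0.34 to -0.17), CD151 (-0.37 to -0.18), TSPAN4 (-0.50 to -0.27) and TSPAN31 (-0.90 to -0.24) kept their sign in every alternative run; those of TSPAN1 and TSPAN13, from at most 22 UMIs a library, went both ways. The difference in the share of cells with a CD81 UMI was 2.84 points at 500 UMIs per cell, 13.5 points at 2000 UMIs and 7.55 points with barcodes 1 base apart merged, against 5.97 points at 1000 UMIs. With that merging the difference for CD9 was -5.19 points, against -2.32 points, and for CD151 -5.47 points, against -6.08 points. No paired analysis was possible because each dose had 1 library. Depth limits what can be said of TSPAN1, TSPAN13 and TSPAN31.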

Other observations

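The genes beside CD81 were looked at after its ratio was known. Of the 5 nearest rows of the table on either side in RefSeq, 2 reached the minimum, and neither was past 1.5-fold. MRPL23, a mitochondrial ribosomal protein gene, had levels of 118 and 142 CPM at 0 and 2 mM and a ratio of 1.20 (1.06 to 1.37). PHLDA2 had 337 and 294 CPM, a ratio of 0.872 (0.803 to 0.947). Below the minimum, TSSC4 had 194 and 153 UMIs, a ratio of 1.06 (0.855 to 1.32), CDKN1C 83 and 77 UMIs, a ratio of 1.25 (0.906 to 1.73), and the long noncoding RNA KCNQ1OT1 46 and 73 UMIs, a ratio of 2.14 (1.46 to 3.17).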
